A study of Macaca mulatta with 144 samples.

Results

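The serum miRNA response of rhesus macaques (Macaca mulatta, non-human primates, NHPs) to the highest and the lowest radiation doses (RDs) was compared on day 6 after total-body irradiation. The comparison took every Day6 library labelled 8 or 8.5 Gy (12 animals, the high doses) and every Day6 library labelled 6 or 6.5 Gy (12 animals, the low doses), each with the Preradiation library of the same animal. It therefore used 48 of the 144 libraries of the series, and the 48 libraries at 7 and 7.5 Gy were left out. In the study, naïve NHPs of the Chinese sub-strain were randomly assigned to their doses, received bilateral gamma-radiation from a cobalt source with full supportive care, and were bled before and on several days after exposure, always ahead of any transfusion. Small RNA libraries were made from serum with a ligation-based kit and sequenced. No animal was sham-irradiated in the labels, so the own pre-irradiation library was the baseline of each animal.

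The dose ranges differed in more than dose. The high doses held 8 males and 4 females, of which 2 survived and 10 were deceased. The low doses held 5 males and 7 females, of which 7 survived and 5 were deceased. The time since irradiation (TSI) was the same for all animals, whereas the effects of RD and of what went with survival or sex cannot be told apart in the whole groups. Each animal gave 1 library at each time point, so a p-value measures the spread between animals.

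miRNAs are short RNAs that pair with target mRNAs through a seed near their 5′ end and lower the output of those targets. Cells release them into blood within vesicles and protein complexes, so serum carries miRNAs of blood cells, endothelium, liver and other organs. Radiation of the whole body depletes lymphocytes and bone marrow within days, and lymphocyte miRNAs such as miR-150-5p are known to fall in blood as those cells are lost. In serum, a lower level of a cell type's miRNA cannot be told apart as fewer cells or as less RNA released per cell.

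The libraries were shallow and uneven, and depth moved with the comparison. Day 6 totals ranged from 19254 to 2195500 miRNA counts in the high doses (median 147647.5) and from 24458 to 4118401 in the low doses (median 534361.5). Pre-irradiation totals ranged from 43377 to 2893988 (median 568627) and from 95846 to 947219 (median 364632.5), respectively. The total lay below the own pre-irradiation total in 9 of 12 animals at the high doses and in 3 of 12 at the low doses. The mean change was -1.62 ± 2.44 log2 units (SD, n = 12) against 0.43 ± 1.59 (n = 12), a difference of -2.05 (two-sided permutation test, p = 0.024, adjusted p = 0.27 over 18 library measures). The number of miRNAs with a count changed by -88.6 ± 112 and -11.8 ± 73.1 (permutation p = 0.06, adjusted p = 0.27), and by -27.2 ± 47.2 and -11.9 ± 35.0 once each library was thinned to 19254 counts (permutation p = 0.38). Its part in the differences below was not tested. On day 6, 3 libraries held fewer than 100 miRNAs, namely RA2743F (60 miRNAs) and RA2816M (76) at the high doses and RA2445M (91) at the low doses, and results are given without them where they changed.

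**Figure D1:**
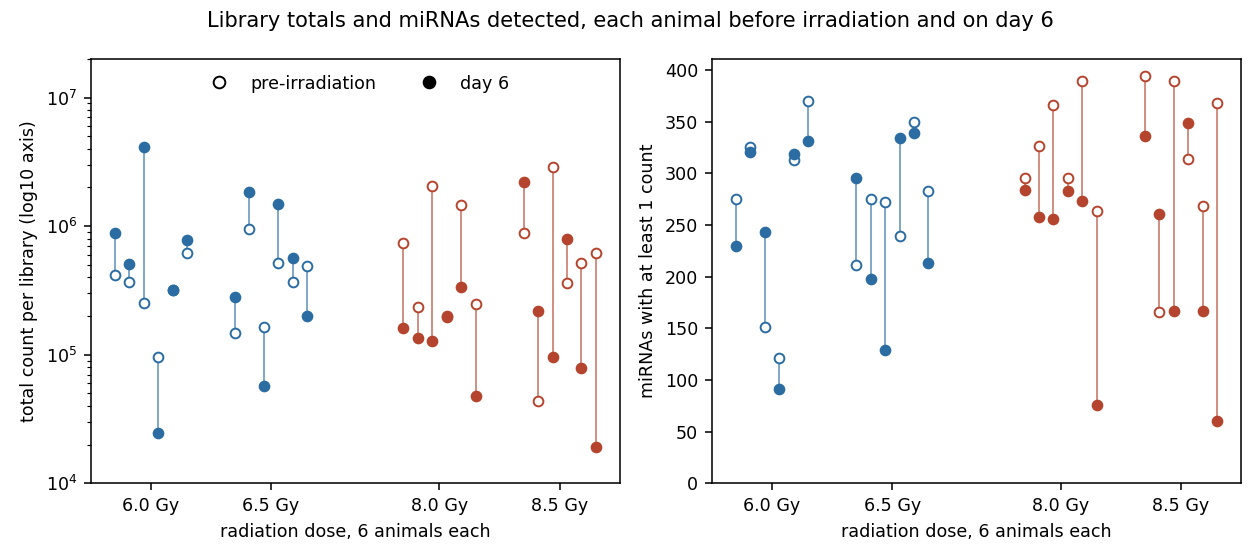
Total count per library (left, log10 axis) and number of miRNAs with at least 1 count (right) for each animal before irradiation (open circles) and on day 6 (filled circles), 6 animals per dose, with a line joining the libraries of 1 animal. At 8.0 and 8.5 Gy the day 6 total lay below the own pre-irradiation total in 9 of 12 animals, at 6.0 and 6.5 Gy in 3 of 12.

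As in serum generally, a few miRNAs held most of the counts. The erythroid miR-486-5p had a median of 71.7% of the counts over the 144 libraries and miR-92a-3p, of the miR-17/92 cluster and abundant in red blood cells, 5.86%. Beside them miR-10b-5p, miR-22, miR-27b-3p, miR-423-5p, miR-10a-5p, miR-16-5p, miR-148a-3p and miR-451 were the most abundant. The share of miR-486-5p on day 6 was 71.1% ± 16 at the high and 73.9% ± 11.9 at the low doses (permutation p = 0.62). A haemolysis score, in which the log2 level of miR-23a-3p is subtracted from that of the red blood cell miR-451, was 3.92 ± 3.28 and 4.45 ± 1.15 on day 6 (permutation p = 0.59). It ran from -2.998 to 12.12 at the high and from 2.555 to 6.331 at the low doses. RA2743F had 3 counts of miR-451 on day 6, so the score is imprecise in the thinnest libraries. Levels are given as CPM, counts per 1000000 of the effective library size, which is the total times its trimmed mean of M values (TMM) factor. These factors ran from 0.0907 to 2.85, so the CPM of miR-486-5p could exceed that unit's own total.

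No miRNA passed the test for a change from pre-irradiation that differed between the high and the low doses. Of 290 miRNAs tested, 0 passed an adjusted p of 0.05 (0% called, edgeR quasi-likelihood test with the animal as block, smallest adjusted p = 0.991), and 2 (0.69%) had an unadjusted p under 0.05 where 14.5 would be expected. DESeq2 also called 0 (7 at an unadjusted p under 0.05). A permutation test of log2(CPM + 1) over the animals called 0 as well, with 13 at an unadjusted p under 0.05 and a smallest adjusted p of 0.518. The difference of the changes had a median of -0.08 on the log2 scale over all 290 miRNAs, and its standard error (SE) had a median of 0.77. Differences of the order of that SE could not be resolved with these animals. The miRNAs nearest to the threshold are given next as values that did not pass.

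**Figure D2:**
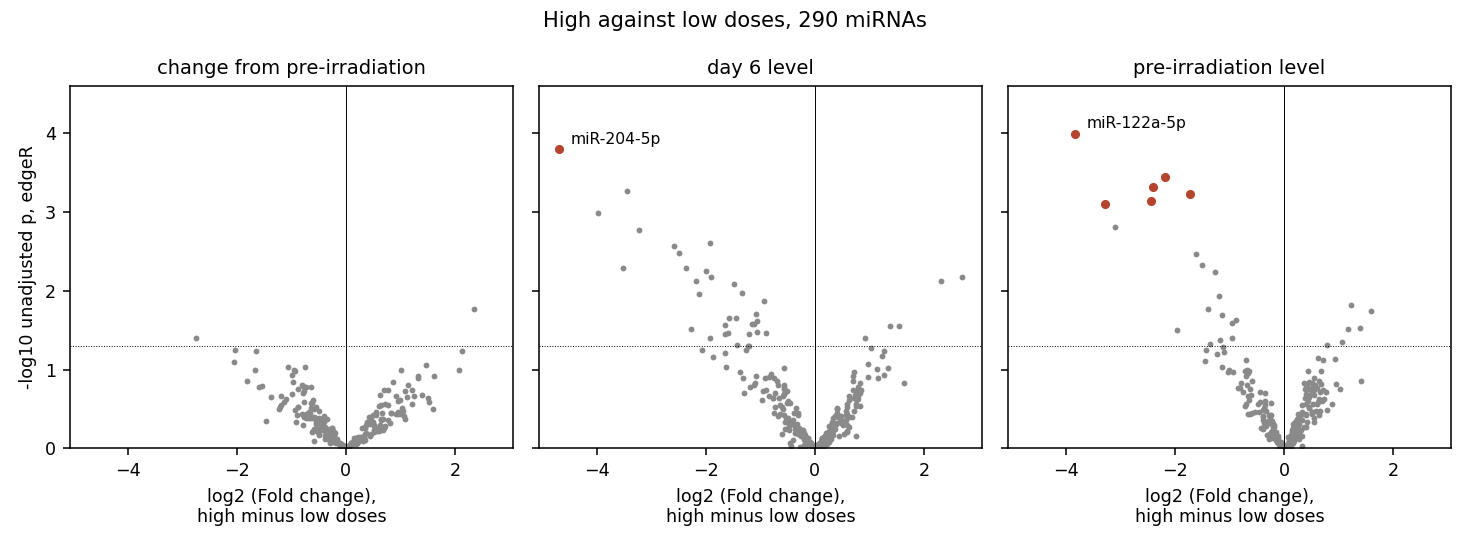
Log2 (Fold change), high minus low doses (x axis), against -log10 of the unadjusted edgeR p (y axis) for 290 miRNAs in the change from pre-irradiation, the day 6 level and the pre-irradiation level; red points passed an adjusted p of 0.05 and the dotted line marks an unadjusted p of 0.05. The change has 0 red points, the day 6 level 1 (miR-204-5p) and the pre-irradiation level 6, all lower at the high doses.

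miR-204-5p, a miRNA best known from the retinal pigment epithelium, had the smallest permutation p of the change. Before irradiation it lay between 0 and 52.2 CPM at the high doses (median 6.05) and between 0 and 19.0 CPM at the low doses (median 4.58). On day 6 it lay between 0 and 19.4 CPM at the high doses (median 0, a count in 5 of 12 animals) and between 0 and 1050 CPM at the low doses (median 6.14, a count in 9 of 12). Its level was below the own baseline in 10 of 12 animals at the high doses and above it in 1, against 6 below and 4 above at the low doses. The groups overlapped, and the 7 libraries of the high doses with no count on day 6 had totals of 19254 to 337375. The mean change of log2(CPM + 1) was 2.87 lower at the high doses, a difference of -2.87 (permutation p = 0.00357, adjusted p = 0.518), while the edgeR log2 (Fold change) was -2.04 (SE 1.05, adjusted p = 0.991). Without the animal block, edgeR gave -4.62 (adjusted p = 0.174). Among the low-dose changes of log2(CPM + 1), 8.72 in RA2445M (from 0 to 3 counts) and 7.17 in RA1782F were the largest. The next was 2.41 in RA2705M, so the difference of mean changes rested in part on those 2 animals.

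On the day 6 level alone miR-204-5p was the only miRNA that passed. At the high doses it was lower, at -4.70 on the log2 scale (SE 1.12, edgeR adjusted p = 0.0467), 1 of 290 miRNAs or 0.345% called. The call rested on few libraries. At the low doses RA1782F had 557 counts (1050 CPM) and RA2445M had 3 counts in its total of 24458 (419.5 CPM), and each of the other animals was at or below 19.4 CPM. Without RA1782F the log2 (Fold change) was -0.79 (adjusted p = 0.85), and without RA2445M it was -4.55 (adjusted p = 0.0816). The call was also lost on leaving out any 1 of RA2116F, RA2318M, RA2475M, RA2596M, RA2685M, RA2689M, RA2733F, RA2742F, RA2743F and RA2816M. With sex in the fit the value was -3.75 (adjusted p = 0.976). DESeq2 gave -0.56 (adjusted p = 0.933).

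Besides miR-204-5p, several miRNAs were lower than their own baseline in most animals at the high doses, though none passed. Within the high doses the fitted value on day 6 against pre-irradiation was negative for 178 of all 290 miRNAs. Such counts of animals were not particular to the miRNAs named here. let-7a-5p was below baseline in 11 of 12 high-dose animals and miR-30d-5p in 10. miR-26a-5p, which represses the chromatin regulator EZH2, had a count in all 48 libraries. Its pre-irradiation level ran from 1358 to 3947 CPM at the high doses (median 2337) and from 1062 to 3411 CPM at the low doses (median 1797). On day 6 it ran from 528.1 to 2190 CPM (median 1506) and from 1086 to 3231 CPM (median 1556), so both groups covered nearly the same levels. It lay below the own baseline in 11 of 12 animals at the high and in 6 of 12 at the low doses. The edgeR log2 (Fold change) of the change was -0.74 (SE 0.44, adjusted p = 0.991) and the difference of mean changes was -0.82 (permutation p = 0.0163, adjusted p = 0.677). The lowest changes were those of RA2816M (-2.65) and RA2743F (-2.23), whose day 6 libraries held 7 and 3 counts of it. Without the 3 libraries of fewer than 100 miRNAs the log2 (Fold change) was -0.49.

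miR-342-5p and miR-485-5p were near their detection limit. miR-342-5p is the minor arm of a hairpin within the EVL gene, whose major arm is a lymphocyte miRNA. Its day 6 level ran from 0 to 4.43 CPM at the high doses (a count in 4 of 12 animals) and from 0 to 56.2 CPM at the low doses (8 of 12). It was below the own baseline in 11 animals at the high doses and above it in 0, against 5 and 5 at the low doses (log2 (Fold change) of the change -1.67, SE 1.00, adjusted p = 0.991; permutation p = 0.0108). For miR-485-5p, of the imprinted DLK1-DIO3 cluster, the day 6 level ran from 0 to 27.9 CPM (median 8.31) and from 0 to 73.5 CPM (median 14.3). It was lower than the own baseline in 10 of 12 animals at the high doses, including 6 of 6 at 8.5 Gy, and in 4 of 12 at the low doses. Its log2 (Fold change) of the change was -1.65 (SE 0.86, adjusted p = 0.991; permutation p = 0.00536).

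At this depth a count of 0 says little in the thinnest libraries. On day 6, 3 counts corresponded to 1.48 to 528 CPM at the high doses (median 12.7) and to 1.82 to 419.5 CPM at the low doses (median 6.26). The 8 libraries of the high doses with no count of miR-342-5p on day 6 had totals of 19254 to 218629, and the 4 without miR-485-5p had totals of 19254 to 95731. A loss of these miRNAs and a lower depth cannot be told apart in those animals.

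miR-193a-3p, which is known to repress the survival factor MCL1, was the miRNA with the smallest edgeR p of the change and the only one under 0.05 that was higher at the high doses. Before irradiation it ran from 0 to 18.6 CPM at the high doses (median 1.29) and from 0 to 20.6 CPM at the low doses (median 3.51). On day 6 it ran from 0 to 46.5 CPM at the high doses (median 12.8) and from 0 to 36.6 CPM at the low doses (median 0.91). It was above its own baseline in 9 of 12 animals at the high doses and below it in 1, against 4 above and 5 below at the low doses. The groups overlapped. Its log2 (Fold change) was 2.36 (SE 0.96, unadjusted p = 0.0169, adjusted p = 0.991) and the difference of mean changes was 1.84 (permutation p = 0.0428, adjusted p = 0.898). It had counts on day 6 in 9 of the high-dose animals and in 6 of the low-dose animals. In some of them, such as RA2318M and RA2475M, this was 1 count. The part of depth in this was not tested.

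The other miRNAs nearest to the threshold of the change were miR-338-5p (log2 (Fold change) -2.76, SE 1.31), miR-550-5p (-2.05, SE 1.15), miR-100-5p (-1.07, SE 0.62), miR-148b-5p (2.13, SE 1.09) and miR-374a-3p (1.47, SE 0.84), each at an adjusted p of 0.991 by edgeR. miR-338-5p had 3 counts in all day 6 libraries of the high doses and 28 in those of the low doses. miR-100-5p, known to repress mTOR, ran on day 6 from 0 to 85.5 CPM at the high doses (median 34.1) and from 0 to 170.4 CPM at the low doses (median 46.7), below the own baseline in 9 and 4 of 12 animals (permutation p = 0.00908, adjusted p = 0.597). For miR-148b-5p and miR-374a-3p the difference of mean changes was 0.14 (permutation p = 0.839) and 0.21 (permutation p = 0.783), far smaller than the fitted values.

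**Figure D3:**
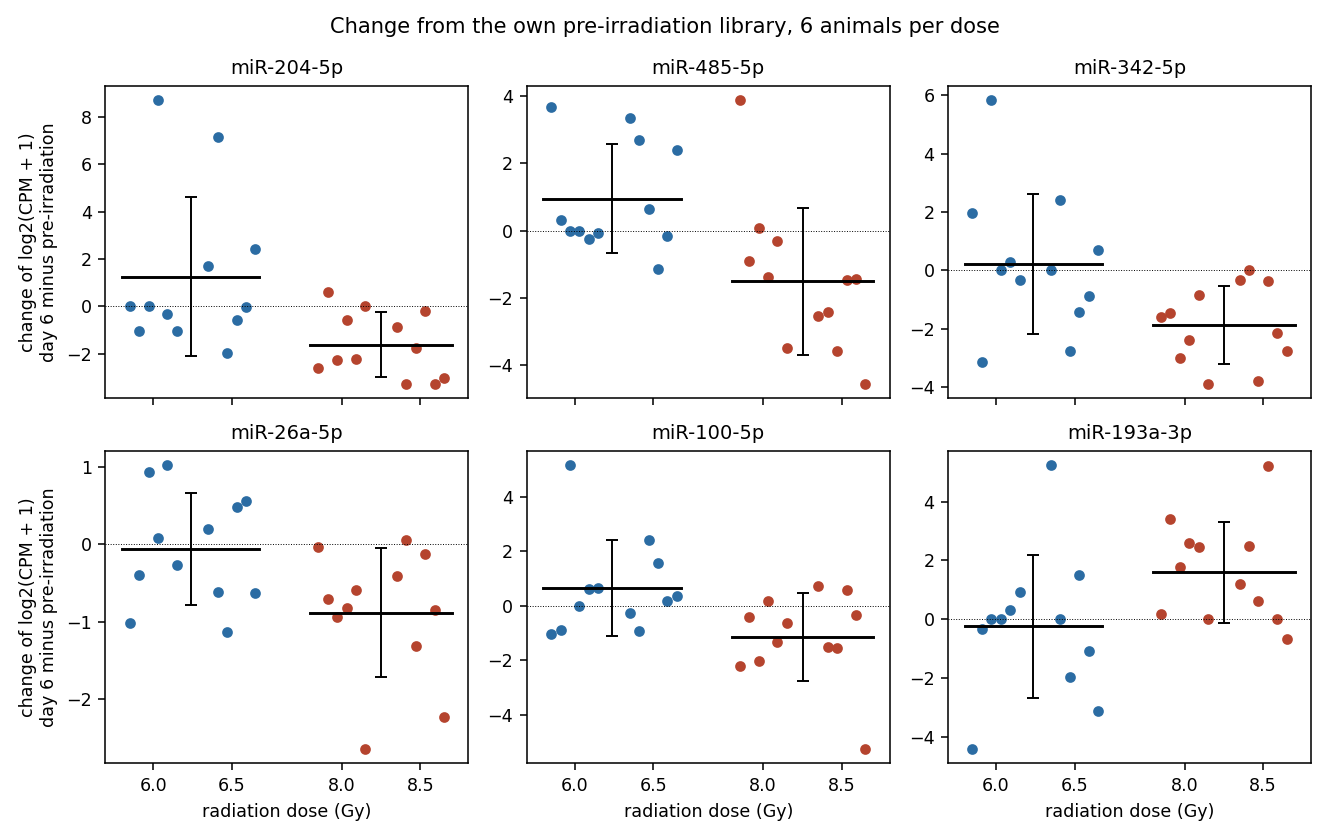
Change of log2(CPM + 1) from the own pre-irradiation library to day 6 (y axis) by dose (x axis) for 6 miRNAs, 1 point per animal, with the mean and SD (n = 12) of the low (blue) and the high doses (red). All groups overlap; the high-dose means lie below 0 for the first 5 miRNAs and above 0 for miR-193a-3p.

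The single doses within each range overlapped as well. The mean change of miR-26a-5p was 0.06 ± 0.79 at 6.0 Gy, -0.19 ± 0.69 at 6.5 Gy, -0.96 ± 0.89 at 8.0 Gy and -0.81 ± 0.85 at 8.5 Gy (SD, n = 6). For miR-193a-3p it was -0.58 ± 1.92, 0.10 ± 2.97, 1.73 ± 1.38 and 1.47 ± 2.12, respectively. For miR-485-5p the means were 0.61 ± 1.52, 1.30 ± 1.78, -0.36 ± 2.43 and -2.68 ± 1.22, with 8.5 Gy as the lowest. Differences between single doses were not tested.

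Within each dose range, day 6 was next compared with pre-irradiation. At the high doses 0 of 290 miRNAs passed (0% called, edgeR, smallest adjusted p = 0.217) and 21 had an unadjusted p under 0.05, or 7.24%. At the low doses 0 passed (smallest adjusted p = 0.995) and 13 had an unadjusted p under 0.05, or 4.48%. The smallest p at the high doses belonged to miR-375, a miRNA of pancreatic islets and gut epithelium. It was above its own baseline in 10 of 12 animals with a median of 216.2 CPM on day 6 against 103.8 before, which edgeR put at 1.4 on the log2 scale (SE 0.41, adjusted p = 0.217), and in 8 of 12 animals at the low doses with 0.62 (SE 0.41, adjusted p = 0.995). The p53 target miR-34a-5p had almost the same fitted value in both ranges, 2.16 (SE 0.86, adjusted p = 0.499) at the high and 2.19 (SE 0.83, adjusted p = 0.995) at the low doses, with 23 and 61 counts in all day 6 libraries. Neither passed. Counted by animal the ranges were less alike, with 4 above and 5 below the own baseline at the high doses, against 7 above and 1 below at the low doses.

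The lymphocyte miRNAs miR-150-5p and miR-342-3p were below baseline in most animals of both ranges, and no difference between the ranges passed. miR-150-5p, a miRNA of mature B and T cells that represses MYB, did not reach the threshold, at -1.0 on the log2 scale (SE 0.48, adjusted p = 0.594) at the high and -0.98 (SE 0.47, adjusted p = 0.995) at the low doses. It was below the own baseline in 8 of 12 animals of either range, and the difference of the changes was -0.02 (SE 0.66, adjusted p = 0.991). On day 6 it ran from 107.1 to 8625 CPM at the high doses (median 865.9) and from 130.4 to 13030 CPM at the low doses (median 704.7), so the ranges overlapped widely. miR-342-3p lay below baseline in 10 and 9 of 12 animals, with -1.33 (SE 0.53, adjusted p = 0.499) and -0.65 (SE 0.49, adjusted p = 0.995). Of the 8 lymphocyte miRNAs tested, the fitted value on day 6 against pre-irradiation was positive for 0 at the high (median -0.77) and 2 at the low doses (median -0.25). Over all 290 miRNAs it was positive for 112 and 132 (median -0.16 and -0.05). miR-181a-5p was above its own baseline in 6 and below it in 6 animals of either range. For the difference of the changes, 0 of the 8 passed. All 8 had a negative difference of the changes, beside 166 of all 290 miRNAs, from -1.67 (miR-342-5p) to -0.02, with a median of -0.26 beside -0.08 over all miRNAs.

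The other white blood cell miRNAs gave no call either. miR-142-5p, which marks blood cells of all lineages, was below baseline in 10 of 12 animals at the high doses (log2 (Fold change) -1.0, SE 0.37, adjusted p = 0.499) and in 9 of 12 at the low doses (-0.51, SE 0.36, adjusted p = 0.995). The myeloid miR-223 gave a difference of the changes of -0.10 (SE 0.60, adjusted p = 0.991). In the list of 9 red blood cell miRNAs 0 passed (median difference of the changes -0.25), and in the list of 8 platelet and endothelial miRNAs 0 passed (median -0.04). miR-126, the endothelial miRNA, gave -0.03 (SE 0.53, adjusted p = 0.991). The summed share of the red blood cell list on day 6 was 52.8% to 97.2% of counts at the high doses (median 83.7%) and 61.0% to 97.6% at the low doses (median 78.6%).

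Tissue miRNAs were sparse. In the muscle list 3 of 8 members were frequent enough to be tested, 0 passed for the change (median 1.03) and 0 for the day 6 level. The muscle miRNAs miR-133a and miR-499-5p had the smallest p among miRNAs higher at the high doses on day 6, with log2 (Fold change) values of 2.31 (SE 0.82, adjusted p = 0.155) and 2.70 (SE 0.94, adjusted p = 0.155). Their medians on day 6 were 10.4 against 7.69 CPM and 0 against 0 CPM, the highest library was 858.6 against 71.9 CPM and 59.4 against 3.52 CPM, and permutation over the animals gave p = 0.705 and p = 0.26. In the liver list 0 of 3 tested passed for the change (median -0.63), in the epithelial list 0 of 8 (median -0.49), in the p53-responsive list 0 of 6 (median -0.20), and in the neuronal list 0 of 3 (median -0.07).

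The miRNA families gave the same count. For the change, 0 of 9 let-7 members (median -0.22), 0 of 11 of the miR-17/92 cluster and paralogues (median 0.03), 0 of 10 miR-30 members (median -0.23), 0 of 2 miR-29 members (median 0.47) and 0 of 44 DLK1-DIO3 members (median -0.27, from -1.81 to 1.63) passed. The median of all miRNAs was -0.08.

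**Figure D4:**
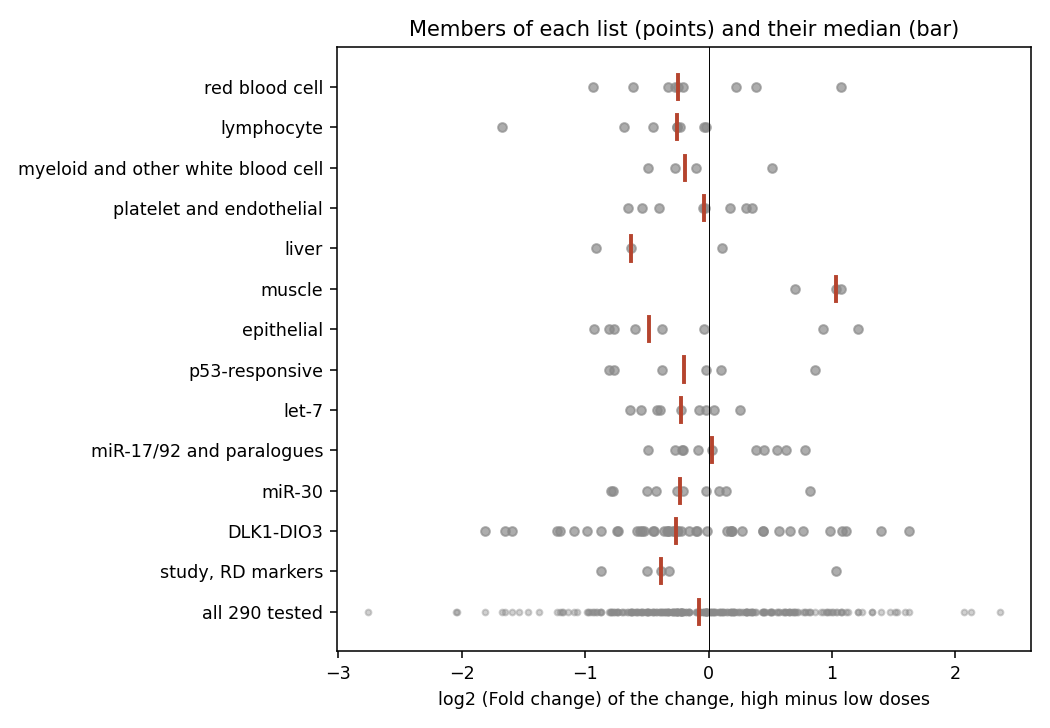
Log2 (Fold change) of the change from pre-irradiation, high minus low doses (x axis), for the tested members of 13 lists (points) with the median of each list (red bar), and for all 290 miRNAs in the bottom row. No member of any list passed an adjusted p of 0.05; the list medians lie between -0.63 (liver) and 1.03 (muscle).

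The study proposed 5 miRNAs as RD markers from these same animals, so their values here are not independent evidence. It drew them across its whole range of doses and over all time points, and gave miR-133a for males and miR-361-3p for females, whereas here both sexes are pooled on day 6 alone, so the comparisons are unlike. In the change 0 of 5 passed, with differences of -0.87 (SE 0.84) for miR-331-3p, -0.38 (SE 1.27) for miR-183-5p, -0.32 (SE 0.70) for miR-1180-3p, -0.50 (SE 0.71) for miR-361-3p and 1.03 (SE 1.00) for miR-133a, each at an adjusted p of 0.991 by edgeR. In the day 6 level 0 of 5 passed, although 3 had an unadjusted p under 0.05, beside 12.8% of all miRNAs. miR-183-5p, of the sensory cluster with miR-96 and miR-182, was nearest. On day 6 it had 7 counts in 3 of 12 animals at the high doses and 70 counts in 7 of 12 at the low doses, with levels of 0 to 5.22 CPM and 0 to 63.6 CPM, or -3.45 on the log2 scale (SE 0.92, edgeR adjusted p = 0.079). It was as far apart before irradiation, with 0 to 3.47 CPM at the high and 0 to 231 CPM at the low doses (-3.09, SE 0.90, adjusted p = 0.0644).

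The other miRNAs nearest to the threshold of the day 6 level were lower at the high doses too. They were miR-122a-5p (-3.98, SE 1.12), miR-636 (-3.22, SE 0.96), miR-106b-3p (-1.92, SE 0.59), miR-1260b (-2.59, SE 0.81), miR-342-5p (-2.49, SE 0.79), miR-149-5p (-3.52, SE 1.19), miR-550-5p (-2.37, SE 0.80) and let-7b-5p (-1.99, SE 0.68), with edgeR adjusted p-values from 0.0991 to 0.155. Of the 37 miRNAs at an unadjusted p under 0.05, 32 were lower (11% of all tested) and 5 higher (1.72%) at the high doses. That count depended on the method. Permutation over the animals gave 10 at an unadjusted p under 0.05, where 14.5 would be expected, and edgeR with library totals alone gave 8. The day 6 level does not take the baseline into account, and permutation over the animals called 0 (smallest adjusted p = 0.811).

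In the main edgeR fit the dose ranges already differed before any animal was irradiated. In the pre-irradiation libraries 6 of 290 miRNAs (2.07%) passed, all lower in the animals later given the high doses. The liver miRNA miR-122a-5p was at -3.83 on the log2 scale (SE 0.87, edgeR adjusted p = 0.0297). let-7b-5p, a repressor of LIN28 and HMGA2, had -2.19 (SE 0.55), miR-182 had -2.40 (SE 0.62), miR-92a-3p had -1.73 (SE 0.46), miR-1260b had -2.44 (SE 0.66) and miR-636 had -3.29 (SE 0.89), each at an adjusted p of 0.0382. The difference of the changes for these 6 miRNAs lay between -0.91 (miR-122a-5p) and 1.13 (miR-182), with adjusted p-values of 0.991.

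The pre-irradiation ranges of all 6 overlapped. miR-122a-5p ran from 0 to 26.1 CPM (median 1.38, a count in 8 of 12 animals) at the high and from 0 to 281.1 CPM (median 6.01, 8 of 12) at the low doses. let-7b-5p ran from 52.2 to 309.2 CPM (median 104.4) and from 57.2 to 2541 CPM (median 172.8). miR-92a-3p ran from 17820 to 52160 CPM (median 29120) and from 16440 to 357600 CPM (median 44970). In each case the highest values were in a few low-dose libraries, while the lower ends of both ranges were close to each other.

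These calls moved with the size factors and with the haemolysis score in the fit. Before irradiation the log2 TMM factor was 0.66 ± 0.65 at the high and -0.19 ± 1.36 at the low doses (permutation p = 0.0651, adjusted p = 0.27), and a low factor raises every CPM of its library. With library totals alone the value of miR-92a-3p was -0.13 (adjusted p = 0.903), that of let-7b-5p -0.45 (adjusted p = 0.776) and that of miR-122a-5p -2.14 (adjusted p = 0.776), and 0 miRNAs passed. With the haemolysis score as a covariate 0 passed, with -0.89 (edgeR adjusted p = 0.589) for miR-92a-3p, -1.20 (adjusted p = 0.514) for let-7b-5p, -1.47 (adjusted p = 0.558) for miR-1260b and -3.39 (adjusted p = 0.0984) for miR-122a-5p. Before irradiation that score was 4.05 ± 0.90 at the high and 4.29 ± 1.19 at the low doses (permutation p = 0.585, adjusted p = 0.674). Beyond that fit, the part of haemolysis in these values was not tested. With sex as a covariate 0 passed (edgeR, smallest adjusted p = 0.106), and permutation over the animals also called 0 (smallest adjusted p = 0.616). Without RA2267F, RA2475M, RA2598M, RA2685M, RA2689M, RA2694M or RA2743F 0 passed, and without RA0724F, RA2116F, RA2445M, RA2733F or RA2816M only miR-122a-5p passed.

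**Figure D5:**
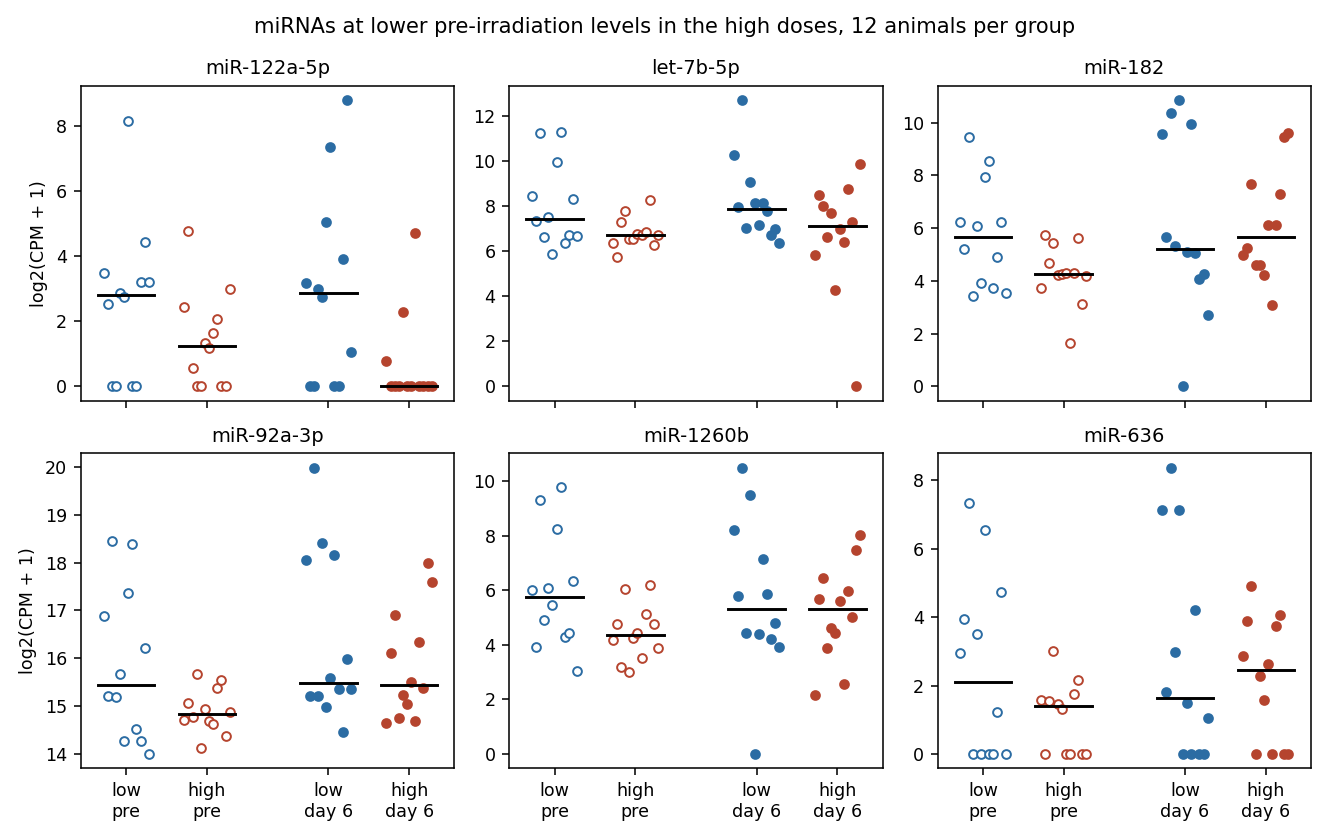
Level as log2(CPM + 1) (y axis) of the 6 miRNAs at lower pre-irradiation levels in the high doses, 12 animals per group, before irradiation (open circles) and on day 6 (filled circles), with the median as a bar. Low-dose libraries (blue) reach higher than high-dose libraries (red) before irradiation, and the groups overlap for each miRNA at both times.

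None of the most abundant miRNAs passed for the change. miR-22 had a difference of -0.30 (SE 0.51), miR-423-5p of -0.35 (SE 0.44), miR-486-5p of 0.22 (SE 0.60), miR-92a-3p of 0.39 (SE 0.53), miR-451 of -0.61 (SE 0.52) and miR-16-5p of -0.94 (SE 0.57), each at an adjusted p of 0.991 by edgeR. miR-16-5p, which represses BCL2 and cyclins, ran on day 6 from 704.1 to 11880 CPM at the high doses (median 5440) and from 1189 to 18050 CPM at the low doses (median 7920). Most of both ranges overlapped. miR-16-5p lay below its own baseline in 8 of 12 animals at the high and in 5 of 12 at the low doses.

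The sexes were not balanced between the dose ranges. Whether the difference between high and low doses itself differed between males and females was tested with edgeR. That test passed for 0 of 290 miRNAs in the change (6 at an unadjusted p under 0.05). In the day 6 level it passed for 0 (17 at an unadjusted p under 0.05). A difference between the sexes as such was not tested. Within males 0 miRNAs passed for the change and within females 0. Among deceased animals alone, 10 at the high and 5 at the low doses, 0 of 290 passed for the change (16 at an unadjusted p under 0.05, edgeR). For the day 6 level 34 of 290 passed (4 higher, 30 lower) and for the pre-irradiation level 17 of 290 (2 higher, 15 lower). RA2705M was the only male of the low doses there, so dose and sex cannot be told apart in this subset either. RA1782F, with 1050 CPM of miR-204-5p on day 6, was also among its 5 low-dose animals. Permutation, library totals alone and leaving out single animals were not tried within this subset. Among the deceased, the miRNAs that passed at both times included miR-1260b, miR-122a-5p, miR-636, miR-106b-3p, let-7b-5p, miR-92b-3p, miR-18a-3p and miR-182. They also included miR-183-5p, with an edgeR adjusted p of 0.0053 on day 6 and 0.0315 before irradiation. In those animals the differences of the changes were farther from 0 than in all animals for some named miRNAs. These were miR-193a-3p (4.73, SE 1.82), miR-338-5p (-5.09, SE 1.81), miR-204-5p (-4.67, SE 1.73), miR-148b-5p (5.11, SE 1.90) and miR-485-5p (-3.22, SE 1.28), each at an edgeR adjusted p of 0.529. The same held for miR-342-5p (-2.93, SE 1.32) and miR-550-5p (-2.29, SE 1.56). The differences were nearer to 0 for miR-374a-3p (1.125, SE 1.28), miR-100-5p (-0.82, SE 0.91) and miR-26a-5p (-0.61, SE 0.63).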

How the data were processed

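Serum small RNA libraries were deposited by the authors as 1 table of raw read counts per mature miRNA (908 miRNAs, 144 libraries). According to the study's methods and the submitters' notes, reads were demultiplexed with bcl2fastq, trimmed, and counted against miRBase in Genomics Workbench, which splits or shares reads of near-identical family members in a way not given in the sources used here. A miRNA was kept when 40% or more of the 144 libraries contained it (290 miRNAs), and TMM factors were computed over all libraries.

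The change (48 libraries, animal as block, the labels giving each library's animal), the day 6 level and the pre-irradiation level (24 libraries each) were tested with edgeR 4.0.16 (quasi-likelihood) and Benjamini-Hochberg adjustment over 290 miRNAs. The deviations of libraries of the same animal correlated at a mean r of 0.15, those of other pairs at 0.0054. Single values used permutation (100000 draws) of log2(CPM + 1). Alternatives were other size factors and filters, DESeq2 1.42.0, covariates, subsets and leaving out each animal. Tests were tried on simulated data. Counting error only is covered by the limit of 3 counts. Named miRNAs were those that passed, and otherwise up to 10 with the smallest p per comparison, with list members and the 10 most abundant. Members and lists were chosen with earlier results of these data known. A miRNA in a list whose arm the table does not state was matched by its name. RA2816M's pre-irradiation library carries a similar but different animal name in its description.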

Additional observations from a re-analysis of the deposited data

Results flagged for a closer look

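Among the 6 animals of a single dose, 1 animal stood apart from the other 5 in 18 of 124 groups of values. The limit used gives about 1 in 20 groups (6.2 of 124) by chance, but only for normally distributed values. Many of these values rest on a few counts or on a group with all other animals at 0, so the 18 cannot be set against 6.2.

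For the change of log2(CPM + 1) at 6.0 Gy, RA0521F was apart for miR-193a-3p (-4.41), miR-338-5p (4.64) and miR-485-5p (3.69), RA2445M for miR-204-5p (8.72, from 0 to 3 counts) and RA0724F for miR-100-5p (5.16). At 8.0 Gy RA2816M was apart for miR-26a-5p (-2.65), and at 8.5 Gy RA2742F for miR-550-5p (-4.20).

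For the day 6 level as log2(CPM + 1), RA1782F at 6.5 Gy was apart for miR-149-5p (8.15) and miR-550-5p (5.13), and RA0529F at 6.0 Gy for miR-149-5p (1.17). At 8.0 Gy RA2689M was apart for miR-550-5p (2.64). At 8.5 Gy RA2685M was apart for miR-183-5p (1.79) and miR-550-5p (2.30), RA2116F for miR-122a-5p (0.77), RA2318M for miR-149-5p (2.48) and RA2743F, at 0, for miR-106b-3p, while the next animal was at 6.31.

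Before irradiation at 8.0 Gy, RA2596M was apart for let-7b-5p (7.77) and RA2694M for miR-182 (1.63).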

How the results depend on the processing

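The count of 0 miRNAs for the change was the same under all 13 alternatives and on leaving out each of the 24 animals (0 to 0; smallest adjusted p from 0.174 to 1 over the alternatives). Without the replicate block, which pairs the libraries of an animal, 0 passed for the change, while the miRNAs at an unadjusted p under 0.05 went from 2 to 12, the smallest edgeR adjusted p from 0.991 to 0.174, miR-204-5p from -2.04 to -4.62 and miR-342-5p from -1.67 to -2.92. In that fit 1 passed within the high doses (miR-324-3p) and 1 within the low doses (miR-204-5p). Leaving out each animal gave 0 within both dose ranges. The alternatives within the dose ranges, and the fit without libraries of fewer than 100 miRNAs, were chosen after seeing the data.

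For the day 6 level the count was 1. It was 0 with DESeq2's RLE size factors, library totals alone, the DESeq2 test (17 at an unadjusted p under 0.05), without animals with a library under 28030 counts, with sex or haemolysis as covariate, in males, in females, and without libraries of fewer than 100 miRNAs. It was 34 among deceased animals, and 0 to 3 on leaving out each animal. For the pre-irradiation level the count was 6. It was 0 with RLE factors, library totals alone, sex or haemolysis as covariate, in males and in females, 1 without the filter, 10 with DESeq2, 17 among deceased animals, and 0 to 8 on leaving out each animal. No animal had a pre-irradiation library of low total, so that setting gave no value. The causes were not tested. Library totals alone moved the median log2 (Fold change) of all miRNAs from -0.08 to -0.27 for the change, from -0.05 to 0.44 for the day 6 level and from 0.02 to 0.43 for the pre-irradiation level.

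Of 1340 values of named miRNAs and of the change of the log2 total count under alternatives, 15 changed sign. For the day 6 level these were miR-149-5p with DESeq2 (2.00), in males (1.37) and without RA1782F (1.36; range on leaving out each animal -4.01 to 1.36), miR-1260b in males (0.012) and let-7b-5p in males (0.44). For the change they were miR-148b-5p (-0.19) and miR-550-5p (1.16) in males. The difference of mean changes was -0.20 for miR-148b-5p with library totals alone, and on leaving out each animal it was -0.092 to 0.37 for miR-148b-5p and -0.031 to 0.60 for miR-374a-3p. Depth limits all of these, since 3 counts in the thinnest day 6 library correspond to 528 CPM.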
